A study of Mus musculus with 15 samples.

Results

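The genes described here are 7 that move calcium out of the cytosol of heart muscle cells: the plasma membrane calcium pumps Atp2b1, Atp2b2 and Atp2b4, the reticulum pump Atp2a2 and its inhibitor Pln, the Golgi pump Atp2c1, and the sodium-calcium exchanger Slc8a1. They were chosen by symbol, and all 7 were found among the 55536 genes of the deposited count table and passed the filter on low counts, which left 17455 tested genes. The choice was made with a difference of Atp2b2 between female and male libraries already known. The contrast of the sexes is therefore given as a description for every one of the 7 genes, without a test. The tests below compare the genotype labels, whose differences the rule of choice did not name. The genes and lists were still chosen with earlier results of these data known, so these tests may not be independent of the choice.

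RNA was sequenced from nuclei of mouse ventricular muscle that were sorted for Pcm1, a centriolar satellite protein that marks cardiomyocyte nuclei, after ribosomal RNA had been removed. There were 4 female and 4 male libraries labelled Pgr_KO (knockout of Pgr, the progesterone receptor gene) and 3 female and 4 male libraries labelled Pgr_WT (wild type). Strain, the kind of knockout allele, the replicate source and any treatment are not given in the sources used here, the tissue label carries an unexplained 3-6, and p-values measure only the spread between these libraries, which may be technical. The series title asks about control of heart maturation by this receptor in a sex-specific way.

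Total counts were 24.4 to 139.4 M per library. Pgr reads ran against the genotype labels, with 10.9 ± 1.67 CPM (counts scaled to library size, mean ± SD) in knockout females (n = 4), 6.58 ± 0.465 CPM in knockout males (n = 4), 0.128 ± 0.134 CPM in wild-type females (n = 3) and 0.0640 ± 0.0802 CPM in wild-type males (n = 4), so groups are named by label only. Markers of endothelial cells and fibroblasts were high in 6 libraries (replicates 1 and 2 of both knockout groups and replicate 1 of both wild-type groups) and low in the other 9. The summed level of 12 endothelial genes was 396.8 to 804.5 CPM in the 6 and 25.3 to 91.3 CPM in the 9, and that of 12 fibroblast genes was 808 to 2147 CPM and 66.1 to 276.5 CPM. None of these 24 genes was at 0 throughout either set. The 12 cardiomyocyte genes summed to 43940 to 72430 CPM and 57690 to 76670 CPM, so both sets held the labelled cell type. The 9 leukocyte genes summed to 50.3 to 110.7 CPM and 12.3 to 39.8 CPM, while the 10 mural genes overlapped (551.4 to 661.8 CPM and 582.2 to 777 CPM). Reads of genes from the other sex appeared in knockout female replicate 2 (2.11 CPM of Y-linked Ddx3y), wild-type female replicate 2 (1.79 CPM of Ddx3y) and wild-type male replicate 2 (54.2 CPM of Xist).

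Calcium enters a cardiomyocyte and is released from its reticulum at each beat, and relaxation follows when it is removed again. The reticulum pump SERCA2, encoded by Atp2a2, returns most of it to the store, and phospholamban, encoded by Pln, holds that pump back until it is phosphorylated. The exchanger NCX1, encoded by Slc8a1, carries calcium out across the cell membrane against sodium. Plasma membrane pumps export calcium at the cost of ATP, with PMCA1 (Atp2b1) and PMCA4 (Atp2b4) present in many tissues and PMCA2 (Atp2b2) best known from neurons and the hair cells of the inner ear. SPCA1, encoded by Atp2c1, loads the Golgi with calcium and manganese.

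The sequences just upstream of the starts of Atp2b2 are shown because, of the 7 genes, this one differed most between the sex labels, and that of Pln because its level per length was the highest. They are RefSeq windows of 250 bases before an annotated start on GRCm38.p6. GENCODE lists 8 transcripts of Atp2b2, of which 4 are protein coding, and these begin at 3 starts on the minus strand. Capitals mark the half-site of steroid receptors (TGTTCT on either strand, so also AGAACA) and the GATA factor motif (AGATAA on either strand, so also TTATCT), which were the motifs searched and do not overlap each other.
Atp2b2, most internal start (chr6:113891540-113891789, minus strand): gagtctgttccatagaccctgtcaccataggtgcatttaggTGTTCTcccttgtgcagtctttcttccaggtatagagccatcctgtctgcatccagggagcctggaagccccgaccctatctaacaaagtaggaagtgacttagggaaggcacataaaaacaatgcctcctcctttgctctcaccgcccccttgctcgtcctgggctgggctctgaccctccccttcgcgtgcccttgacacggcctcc
Atp2b2, middle start (chr6:113934682-113934931, minus strand): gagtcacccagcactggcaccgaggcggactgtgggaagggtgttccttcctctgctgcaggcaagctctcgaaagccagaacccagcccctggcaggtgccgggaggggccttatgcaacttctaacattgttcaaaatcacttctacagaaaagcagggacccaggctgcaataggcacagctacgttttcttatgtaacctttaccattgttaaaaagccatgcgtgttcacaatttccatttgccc
Atp2b2, outermost start (chr6:114042081-114042330, minus strand): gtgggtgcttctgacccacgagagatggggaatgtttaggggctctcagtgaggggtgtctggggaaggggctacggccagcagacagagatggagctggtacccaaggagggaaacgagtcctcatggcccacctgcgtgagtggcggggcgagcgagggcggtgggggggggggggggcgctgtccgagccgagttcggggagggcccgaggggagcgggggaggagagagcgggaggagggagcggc
Pln (chr10:53337436-53337685, plus strand): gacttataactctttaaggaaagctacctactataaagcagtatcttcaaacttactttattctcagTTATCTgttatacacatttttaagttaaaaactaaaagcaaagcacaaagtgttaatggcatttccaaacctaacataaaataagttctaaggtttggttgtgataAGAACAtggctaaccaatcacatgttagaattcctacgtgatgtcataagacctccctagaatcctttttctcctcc
The most internal Atp2b2 window held 1 steroid half-site, and the others held neither motif. The Pln window held 1 of each. Among all 32851 windows of this length, 16.1% held the half-site and 10% the GATA motif, so a match is common and says nothing of binding. The Atp2b2 windows had a GC content of 55.6%, 52.0% and 69.6% and the Pln window 32.8%, against a median of 52.4% over all windows. Counts were made over whole genes, so which Atp2b2 start was in use was not measured.

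The counts cover whole gene bodies, introns included, and levels of different genes are therefore compared as CPM per kb of gene body. On that scale Pln (chromosome 10, 53337667 to 53345987, plus strand, GRCm38) was first, at 178 ± 42.6 CPM per kb (n = 15). Atp2a2 (chromosome 5, 122453513 to 122502225, minus strand) followed at 86.4 ± 11.8 and Slc8a1 (chromosome 17, 81373105 to 81738377, minus strand) at 33.0 ± 7.89 CPM per kb. These genes of the beat-to-beat cycle stood far above the rest, and their ranges over the 15 libraries did not overlap (105.6 to 273.2, 65.9 to 104.1 and 22.1 to 52.1 CPM per kb). The neighbours Atp2c1 (chromosome 9, 105403539 to 105527319, minus strand), at 1.94 ± 0.368, and Atp2b1 (chromosome 10, 98914406 to 99026143, plus strand), at 1.39 ± 0.169 CPM per kb, had overlapping ranges. So had Atp2b4 (chromosome 1, 133699457 to 133801041, minus strand), at 0.0940 ± 0.0945, and Atp2b2 (chromosome 6, 113743831 to 114042613, minus strand), at 0.0421 ± 0.0280 CPM per kb. Spliced RNA adds more per kb to a short gene such as Pln, whose body spans 8321 bases, than to Slc8a1 with 365273 bases.

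**Figure D1:**
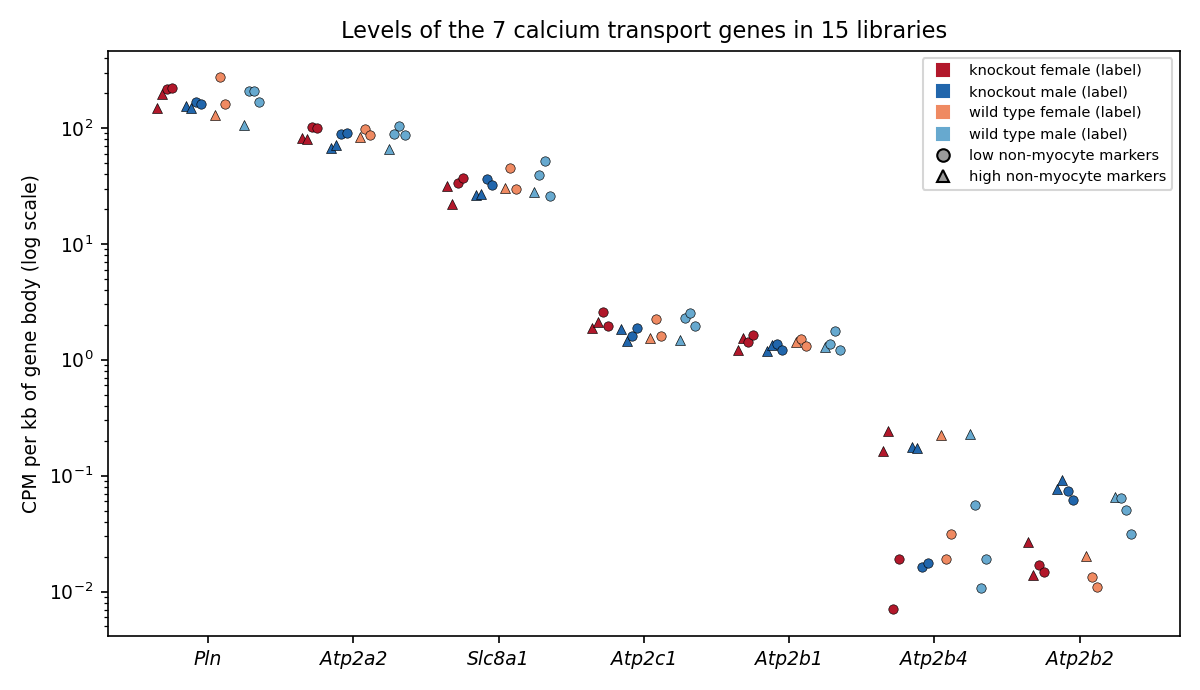
Level of each of the 7 genes in every library, in CPM per kb of gene body on a log axis, by label group, with triangles for libraries with high and circles for those with low endothelial and fibroblast markers. Pln, Atp2a2 and Slc8a1 lie above 22 CPM per kb in all libraries, Atp2b2 separates the female from the male libraries, and Atp2b4 separates the marker sets.

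Overlapping genes were looked at for shared reads. Pln lies wholly inside Cep85l on the opposite strand, and Cep85l held 7.28% as many reads as Pln, so the counting told the strands apart. Aste1 overlaps the end of Atp2c1 on the opposite strand with 5.63% as many reads. Gm44167, listed within Atp2b2 on its own strand, had 0 reads, as had the same-strand genes listed within Atp2b4 and Atp2a2. Reads that fall on 2 genes of the same strand may have been left uncounted, so these values do not show that no reads were shared. The opposite-strand Gm15083 had 0.655% as many reads as Atp2b2.

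Among the plasma membrane pumps, Atp2b2 was lower in all 7 female libraries than in any of the 8 male ones. It had 7.96, 4.13, 5.10 and 4.41 CPM in the knockout female libraries, against 22.8, 27.5, 21.9 and 18.6 CPM in the knockout male ones. It had 6.06, 3.97 and 3.27 CPM in the wild-type female libraries, against 19.6, 19.2, 15 and 9.33 CPM in the wild-type male ones. The female values thus lay at 3.27 to 7.96 CPM and the male values at 9.33 to 27.5 CPM, and wild-type male replicate 4 came closest to the females. Behind them stood 104 to 2552 reads per library. Of the 17455 tested genes, 0.132% were lower in every female than in every male library, and this count is given as context for a pattern by which the gene was chosen.

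Female minus male, the log2 difference of Atp2b2 was -2.07 ± 0.28 (SE) under the knockout label and -1.83 ± 0.31 under the wild-type label in the edgeR fit, so the fitted female level was 0.238 and 0.28 of the male one. The estimate was -2.06 and -1.68 among libraries with high endothelial and fibroblast markers and -2.09 and -2.02 among those with low markers, under the knockout and the wild-type label. Without the 3 libraries that held reads of the other sex it was -1.96 and -1.66. With any single library left out it was -2.32 to -1.96 (knockout label) and -2.13 to -1.65 (wild-type label). The difference between the genotype labels in females minus that in males was -0.24 ± 0.40, likewise a description.

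Because Atp2b2 is best known from neurons, markers of Schwann cells and neurons were set beside it. The 11 genes of that list, of which 4 passed the filter on low counts, summed to 34.3 to 73.9 CPM in knockout females, 23.6 to 39.4 CPM in knockout males, 31.4 to 53.1 CPM in wild-type females and 24.9 to 44.8 CPM in wild-type males. Of the 11 genes, 2 were at 0 throughout the wild-type males and 1 throughout each other group. The sums overlapped between the sexes. Their medians were 51.4 CPM in knockout females against 35.2 CPM in knockout males, and 41.8 CPM in wild-type females against 37.25 CPM in wild-type males. The part of such cells in the Atp2b2 level was not tested.

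**Figure D2:**
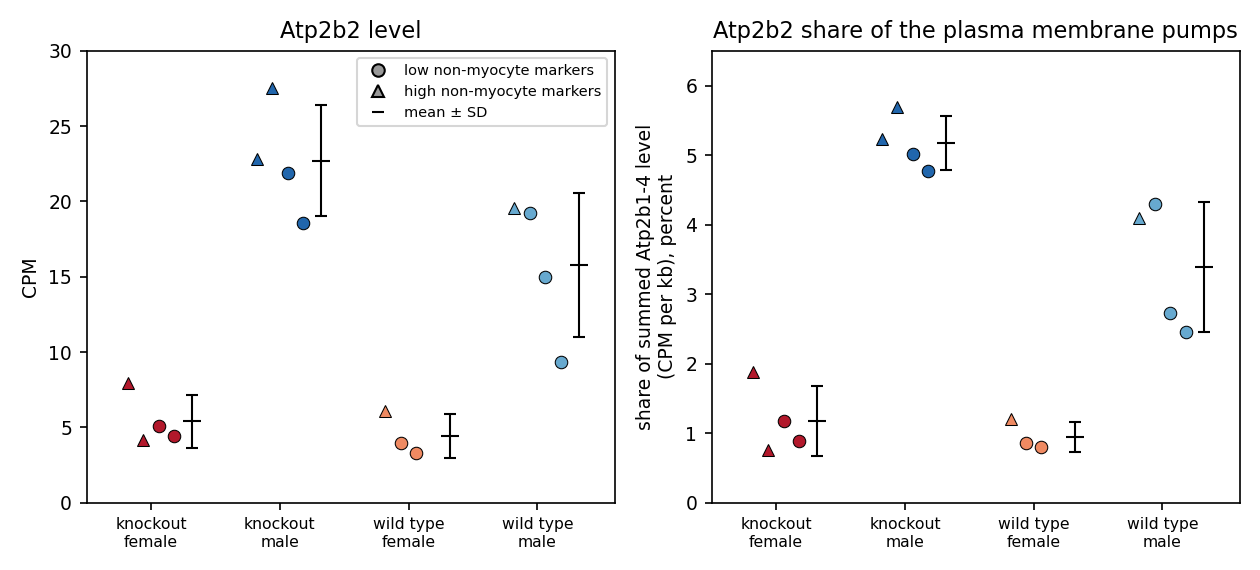
Level of Atp2b2 in CPM (left) and its share of the summed Atp2b1 to Atp2b4 level in percent (right) for each library, by label group, with group means and SD, and with triangles and circles for libraries with high and low endothelial and fibroblast markers. The female libraries lie at 3.27 to 7.96 CPM and the male libraries at 9.33 to 27.5 CPM.

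Atp2b2 did not differ by genotype label beyond the threshold in either sex. Its log2 difference, knockout minus wild type by label, was 0.29 ± 0.30 (SE) in females (edgeR adjusted p = 1) and 0.53 ± 0.27 in males (edgeR adjusted p = 0.999). The male groups averaged 22.7 ± 3.68 CPM under the knockout label and 15.8 ± 4.77 CPM under the wild-type label (SD, n = 4 each), and they overlapped by the knockout library with 18.6 CPM. The unadjusted p of the male difference was 0.0697 by edgeR, 0.0433 by DESeq2, 0.0301 by limma-voom and 0.00857 with the replicate number as a block in edgeR, and the adjusted p stayed between 0.672 and 1 in all the fits that were run.

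Atp2b1 carried most of the plasma membrane pump level in every library. Its level was 135.1, 173, 158.9 and 181.8 CPM in knockout females, 133.4, 149.3, 151.8 and 135.5 CPM in knockout males, 159.6, 169.4 and 148.3 CPM in wild-type females and 143.9, 152.5, 197.7 and 134.4 CPM in wild-type males. All 4 groups overlapped, and the coefficient of variation over the 15 libraries was 12.2%, the smallest of the 7 genes. The difference by label was 0.03 ± 0.14 in females (edgeR adjusted p = 1) and -0.14 ± 0.13 in males (edgeR adjusted p = 0.999).

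Atp2b4 followed the marker sets and not the labels. It stood at 16.6, 24.8, 0.717 and 1.95 CPM in knockout females, at 18.1, 17.6, 1.65 and 1.80 CPM in knockout males, at 22.9, 1.95 and 3.18 CPM in wild-type females and at 23.4, 5.64, 1.09 and 1.94 CPM in wild-type males. The 6 libraries with high endothelial and fibroblast markers held 16.6 to 24.8 CPM and the other 9 held 0.717 to 5.64 CPM, with no overlap. Fewer such cells and less RNA per cell cannot be told apart in these sorted bulk samples. The part of the marker cells in the Atp2b4 level was not tested. How many of all tested genes separate the 2 marker sets in this way was not counted. The common dispersion, a measure of spread between libraries over all tested genes, was 0.163 in the edgeR fit. It was 0.0378 with a term for the marker level, so the split is not particular to this gene. By label its difference was 0.25 ± 1.38 in females (edgeR adjusted p = 1) and 0.28 ± 1.27 in males (edgeR adjusted p = 0.999), and with a term for the marker level it was -0.22 ± 0.20 and -0.29 ± 0.18 (edgeR adjusted p = 1 and 0.98).

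**Figure D3:**
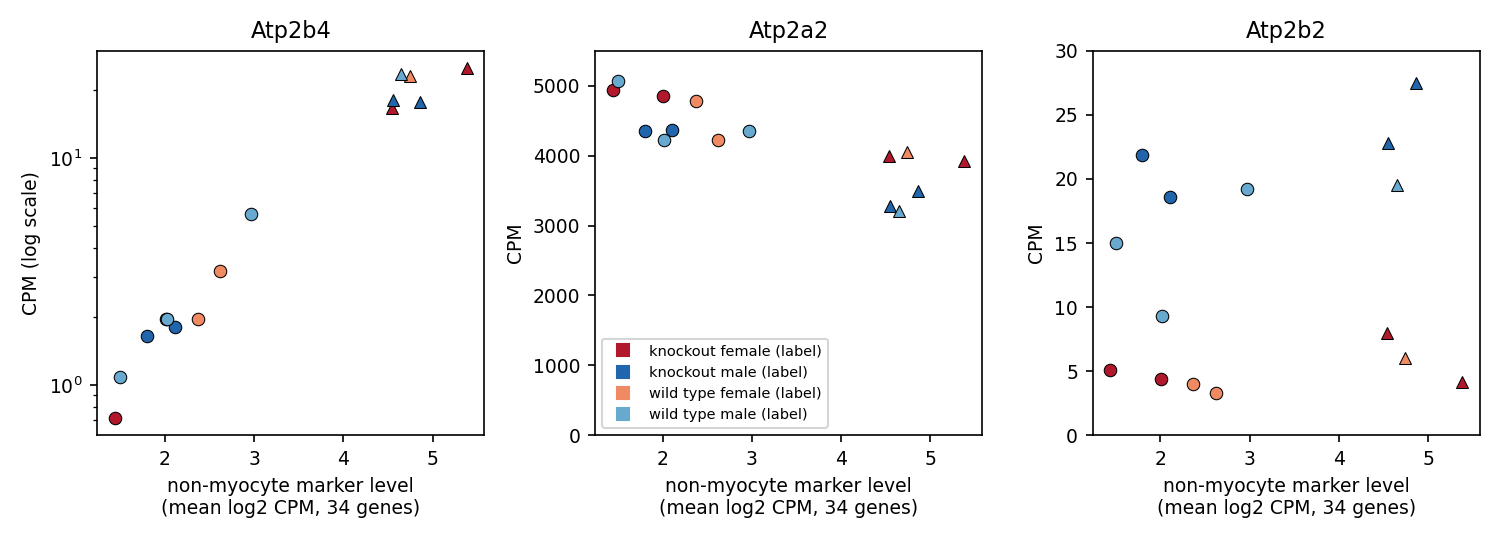
Levels of Atp2b4, Atp2a2 and Atp2b2 in CPM (Atp2b4 on a log axis) against the mean log2 CPM of 34 endothelial, fibroblast and mural marker genes in the 15 libraries, coloured by label group, with triangles for high and circles for low marker levels. The 6 libraries with marker levels of 4.54 or more hold 16.6 to 24.8 CPM of Atp2b4 and less Atp2a2 than the other 9, and Atp2b2 separates by sex label at either marker level.

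The isoform shares of the plasma membrane pumps were taken from CPM per kb summed over Atp2b1 to Atp2b4. Atp2b1 made up 91.4 ± 7.12% in knockout females, 87.5 ± 6.24% in knockout males, 92.9 ± 7.09% in wild-type females and 90.7 ± 7.02% in wild-type males (SD, n = 4, 4, 3 and 4). It held 80.6% to 85.3% in the 6 libraries with high markers and 91.3% to 97.7% in the other 9. Atp2b4 made up 10.7% to 14.4% in the 6 and 0.485% to 3.72% in the 9. Atp2b3, the remaining pump of the family, made up 0.325% to 1.45%.

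The share of Atp2b2 was larger in every knockout male library than in any wild-type male one, at the smallest p that the unpaired permutation allows. In males it was 5.23%, 5.69%, 5.01% and 4.77% in knockout males, against 4.09%, 4.30%, 2.73% and 2.46% in wild-type males. The difference of 1.78 percentage points had an exact two-sided unpaired permutation p = 0.0286, the smallest that 70 arrangements allow. Its adjusted p was 0.286 over the 10 tests of shares and ratios. A single share that separates the groups can reach no lower adjusted p in this design, so the adjusted value does not show that the shares were alike. Paired by replicate number, the same difference had an exact sign-flip permutation p = 0.125. Every pair had the same sign, and this is the smallest p that the pairing allows. Among male libraries with low markers alone the difference was 1.73 percentage points (exact permutation p = 0.2, adjusted p = 0.833). The label groups did not overlap there either. Neither the paired test nor this one could fall below 0.05 with so few libraries, so their p-values do not weaken the difference. In females the share was 1.88%, 0.763%, 1.17% and 0.884% under the knockout label, against 1.20%, 0.855% and 0.795% under the wild-type label. These female values overlapped, with a difference of 0.223 percentage points (exact permutation p = 0.629). The 8 other tests had exact permutation p-values of 0.371 to 0.971.

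The reticulum pump Atp2a2 was lower in each library with high markers than in any with low markers. It had 4000, 3923, 4945 and 4851 CPM in knockout females and 3276, 3497, 4351 and 4369 CPM in knockout males. It had 4053, 4778 and 4219 CPM in wild-type females and 3212, 4347, 5072 and 4217 CPM in wild-type males. The 6 libraries with high markers held 3212 to 4053 CPM and the other 9 held 4217 to 5072 CPM. This is the reverse of the order seen for Atp2b4. The part of the marker cells in the Atp2a2 level was not tested, and the share of all tested genes with such a split was not counted. By label the difference was 0.03 ± 0.17 in females (edgeR adjusted p = 1) and -0.12 ± 0.16 in males (edgeR adjusted p = 0.999).

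Phospholamban RNA varied more than that of its pump. Pln had 1233, 1642, 1800 and 1834 CPM in knockout females, 1290, 1242, 1399 and 1337 CPM in knockout males, 1079, 2274 and 1346 CPM in wild-type females and 878.6, 1742, 1749 and 1386 CPM in wild-type males. The lowest and the highest library both carried the wild-type label, and all groups overlapped. The difference by label was 0.06 ± 0.26 in females (edgeR adjusted p = 1) and -0.13 ± 0.24 in males (edgeR adjusted p = 0.999). The log2 ratio of Pln over Atp2a2 per kb, a measure of inhibitor RNA for each unit of pump RNA, was 1.10 ± 0.18, 1.0 ± 0.16, 1.01 ± 0.43 and 0.97 ± 0.23 in knockout females, knockout males, wild-type females and wild-type males. It was 0.64 to 1.48 over the 15 libraries, so Pln stood above Atp2a2 per kb in all of them. It differed by label by 0.09 in females (exact permutation p = 0.686) and 0.04 in males.

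The exchanger Slc8a1 had the most reads of the 7 genes, over the longest gene body. It stood at 11530, 8065, 12140 and 13410 CPM in knockout females, 9626, 9825, 13240 and 11750 CPM in knockout males, 11030, 16450 and 10810 CPM in wild-type females and 10160, 14320, 19010 and 9433 CPM in wild-type males. The highest values were in wild-type female replicate 2 and wild-type male replicate 3, and the groups overlapped. The difference by label was -0.18 ± 0.26 in females (edgeR adjusted p = 1) and -0.25 ± 0.24 in males (edgeR adjusted p = 0.999). The log2 ratio of Atp2a2 over Slc8a1 per kb, which sets reuptake against extrusion, was 1.57 ± 0.22, 1.39 ± 0.08, 1.38 ± 0.23 and 1.29 ± 0.32 in the same order of groups, with differences by label of 0.20 in females (exact permutation p = 0.371) and 0.09 in males (exact permutation p = 0.600).

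The Golgi pump Atp2c1 had opposite signs of the label difference in the sexes, but the test of that contrast did not pass. It had 234, 261.4, 321.6 and 242.2 CPM in knockout females, against 189.7, 277.3 and 198.8 CPM in wild-type females. It had 229.5, 181.1, 198.7 and 233.2 CPM in knockout males, against 184.4, 284.7, 315.8 and 243.6 CPM in wild-type males. Within each sex the labels overlapped. The difference by label was 0.25 ± 0.19 in females (edgeR adjusted p = 1) and -0.29 ± 0.18 in males (edgeR adjusted p = 0.999), and the female minus the male difference was 0.54 ± 0.26 (edgeR unadjusted p = 0.0561, adjusted p = 1). Under the knockout label every female library was above every male one, which held in that direction for 1.26% of tested genes and is a description only. Under the wild-type label the sexes overlapped.

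Over the 7 genes, none passed an adjusted p below 0.05 by edgeR, DESeq2 or limma-voom in the comparison of labels in females, in males or in the difference between them. The background was also close to empty, with 0% of the 17455 genes called by edgeR in females, 0.0115% in males and 0% for the difference. With so few calls of any gene, a missing call does not show that levels were alike. At an unadjusted p below 0.05, edgeR counted 0 of the 7 genes in each comparison, against 1.74%, 1.42% and 2.49% of all tested genes. DESeq2 and limma-voom each counted 1 of the 7 in males, Atp2b2, beside 2.26% and 1.72% of all tested genes, and 0 in the other comparisons. The label groups overlapped for all 7 genes in both sexes, while they did not overlap for 1.92% of tested genes in females and 1.60% in males. In females 6 of the 7 differences were above 0, with a median of 0.06, beside 55.4% of all tested genes and a median of 0.03. In males 2 of 7 were above 0, with a median of -0.13, beside 53% and 0.02.

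**Figure D4:**
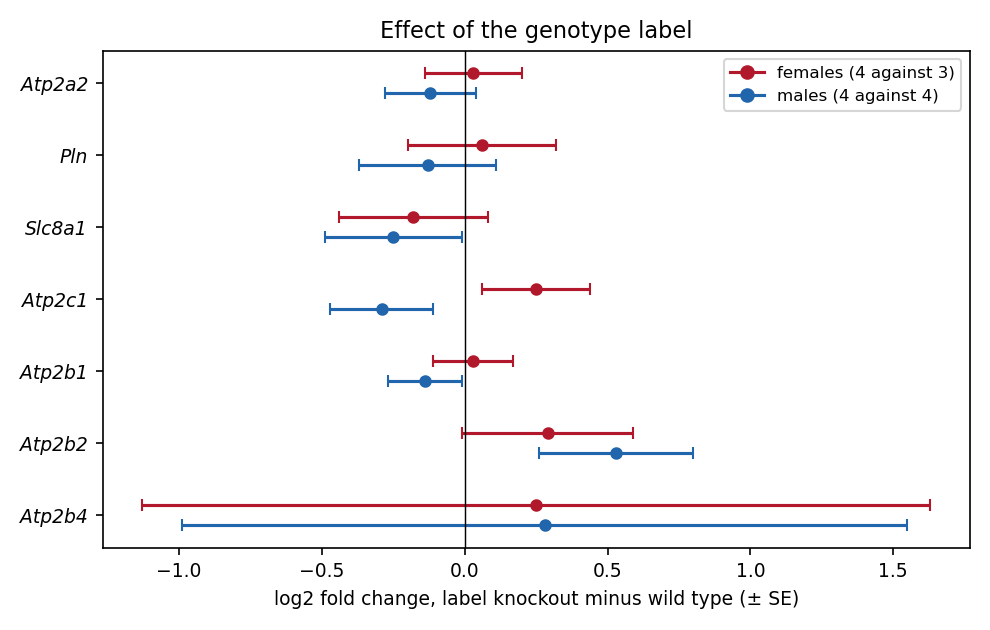
Log2 fold change, knockout minus wild type by label, of the 7 genes in females and males from the edgeR fit, with bars of 1 SE. Values lie between -0.29 and 0.53, and the widest bars are those of Atp2b4, with an SE of 1.38 in females and 1.27 in males.

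Female minus male, the 6 genes other than Atp2b2 had log2 differences of 0.02 to 0.33 with the knockout label and -0.21 to 0.21 with the wild-type label. Atp2c1 stood at 0.33 ± 0.18 and -0.21 ± 0.19 under the 2 labels, and Pln at 0.30 ± 0.24 under the knockout label. Only Atp2b2 was separated by sex under both labels among the 7, and Atp2c1 was separated under the knockout label alone. For each label by itself, 3.18% (knockout) and 2.95% (wild type) of tested genes were separated in either direction. The share separated under both labels at once was not counted.

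The related pumps and exchangers outside the 7 were few in reads. Slc8a3, the NCX3 exchanger best known from skeletal muscle and brain, had 2.17 ± 0.253 CPM in knockout females, 3.71 ± 0.902 in knockout males, 2.66 ± 0.545 in wild-type females and 4.77 ± 0.567 CPM in wild-type males. Female minus male, it differed by -0.78 ± 0.19 under the knockout label and -0.84 ± 0.21 under the wild-type label, given like that of Atp2b2 as a description. Within each label Slc8a3 was lower in every female library than in every male one, as Atp2b2 was. A separation in either direction held for 3.18% (knockout) and 2.95% (wild type) of tested genes. By label it differed by -0.29 ± 0.21 in females (edgeR adjusted p = 1) and -0.36 ± 0.19 in males (edgeR adjusted p = 0.999). Slc8a2, the NCX2 exchanger of brain, was at 1.70 ± 0.947, 3.33 ± 0.199, 1.98 ± 0.499 and 2.35 ± 0.573 CPM in knockout females, knockout males, wild-type females and wild-type males. Under the knockout label Slc8a2 too was lower in every female library (0.801 to 3.03 CPM) than in every male one (3.16 to 3.615 CPM). It is thus among the 3.18% of tested genes separated there, again as a description. Under the wild-type label its sexes overlapped. Its label difference was -0.22 ± 0.36 in females and 0.50 ± 0.33 in males (edgeR adjusted p = 1 and 0.999). The reticulum pump Atp2a3 followed the marker sets, with 4.56 to 6.83 CPM in the 6 libraries with high markers and 0.256 to 1.21 CPM in the other 9. The share of all tested genes that did so was not counted. Atp2a1, the fast-muscle reticulum pump, stayed below 0.5 CPM except in wild-type female replicate 2 and wild-type male replicate 2, at 1.49 and 1.66 CPM, which are 2 of the libraries holding other-sex reads. Its label difference was -1.44 ± 0.73 in females and -1.28 ± 0.67 in males (edgeR adjusted p = 1 and 0.999). Slc24a2, a potassium-dependent exchanger of neurons, differed by label by -0.26 ± 0.16 in females and 0.11 ± 0.15 in males.

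**Figure D5:**
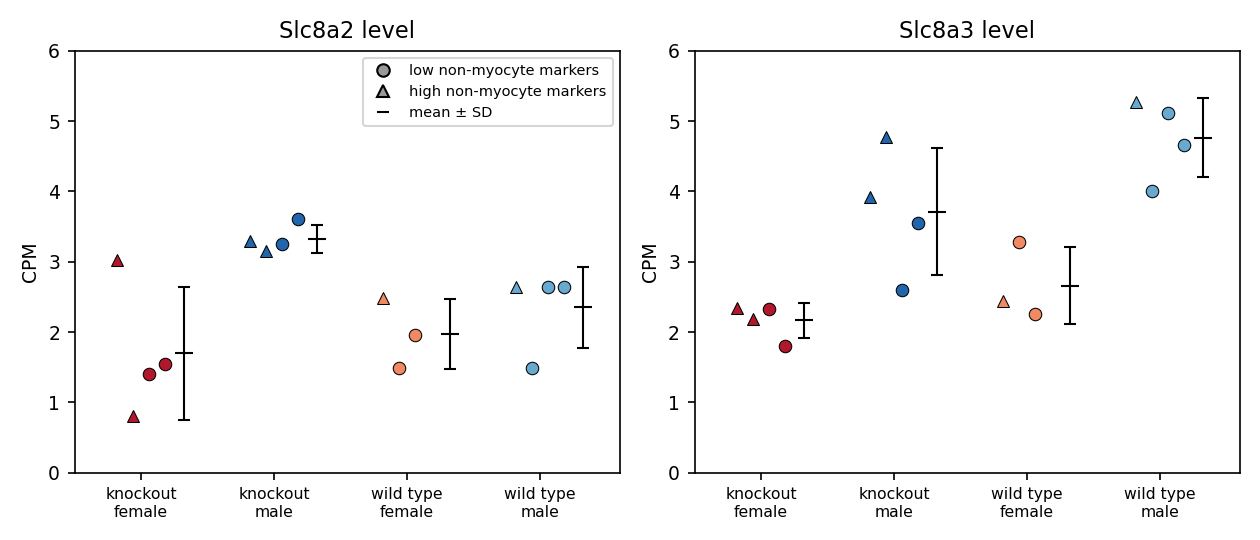
Levels of the exchanger genes Slc8a2 and Slc8a3 in CPM for each library, by label group, with group means and SD, and with triangles and circles for high and low endothelial and fibroblast markers. Slc8a3 lies at 1.80 to 2.345 CPM in knockout females and at 2.60 to 4.77 CPM in knockout males. Under the wild-type label it lies at 2.26 to 3.28 CPM in females and at 4.01 to 5.27 CPM in males.

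Regulators of the reticulum pump and of phospholamban were measured as a list of 20 genes, of which 18 were tested. By label, 7 of the 18 were higher in females (median -0.07) and 9 of the 18 in males (median 0.01), beside 55.4% and 53% of all tested genes, and none was called by edgeR. The 4 with the smallest p were Hspb6, a small heat shock protein that binds the phosphatase acting on phospholamban, Hrc, a histidine-rich calcium-binding protein of the reticulum, S100a1, a calcium sensor that acts on SERCA2, and Akap7, an anchor of protein kinase A. In females the label differences were -0.53 ± 0.24 for Hspb6 (edgeR unadjusted p = 0.0419, adjusted p = 1), -0.53 ± 0.26 for Hrc, -0.48 ± 0.24 for S100a1 and 0.22 ± 0.10 for Akap7. In males they were 0.30 ± 0.22, 0.29 ± 0.24, 0.40 ± 0.23 and -0.09 ± 0.10 for the same genes. The female minus the male difference was -0.83 ± 0.32 for Hspb6, -0.83 ± 0.36 for Hrc, -0.88 ± 0.33 for S100a1 and 0.31 ± 0.14 for Akap7, with unadjusted edgeR p-values of 0.0231, 0.0371, 0.0188 and 0.0459 and an adjusted p of 1 for each. These 4 genes were picked by their label p in either sex. The contrast shares those values, so its unadjusted p-values are favoured by the choice. Sln, which encodes the pump inhibitor sarcolipin of atria, averaged 0.885 ± 0.319 CPM in knockout females, 0.920 ± 0.552 in knockout males, 0.960 ± 0.483 in wild-type females and 1.15 ± 0.759 CPM in wild-type males.

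Among 7 calcium-binding proteins of the reticulum, all tested, 0 were higher by label in females (median -0.16) and 5 in males (median 0.10), beside 55.4% and 53% of all tested genes with medians of 0.03 and 0.02. The 12 cardiomyocyte markers had the same order, with 1 of 12 higher by label in females (median -0.20), 12 of 12 in males (median 0.24) and 1 of 12 above 0 for the female minus the male difference (median -0.46). Their part in the values of the reticulum proteins and of Hspb6, Hrc and S100a1 was not tested. Casq2, the cardiac calsequestrin, had 624 ± 173 CPM in knockout females against 777 ± 106 CPM in wild-type females, and 706 ± 140 CPM in knockout males against 581 ± 83.0 CPM in wild-type males. Its label difference was -0.32 ± 0.22 in females (edgeR adjusted p = 1) and 0.28 ± 0.20 in males (edgeR adjusted p = 0.999). Casq1, the skeletal calsequestrin, differed by -0.56 ± 0.29 and 0.12 ± 0.27, Hsp90b1, a chaperone of the reticulum, by -0.25 ± 0.24 and -0.05 ± 0.22, and Sdf4, a calcium-binding protein of the Golgi, by -0.08 ± 0.11 and 0.10 ± 0.10 in females and males.

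The other lists are set beside the same shares and medians of all tested genes (55.4% and 0.03 in females, 53% and 0.02 in males). Of the 10 tested paralogs of pumps and exchangers, 6 were higher by label in females (median 0.21) and 6 in males (median 0.08). Of the 11 tested partners of the plasma membrane pumps and exchanger, 4 were higher in females (median -0.08) and 7 in males (median 0.05), and Fxyd1, the phospholemman that regulates the sodium pump, differed by -0.22 ± 0.27 in females and 0.38 ± 0.25 in males. Ank2, the ankyrin that anchors exchanger and sodium pump, differed by 0.17 ± 0.14 and -0.04 ± 0.13, and the sodium pump subunit Atp1b1 by -0.07 ± 0.19 and -0.17 ± 0.17 in females and males. Of the 11 genes of mitochondrial calcium uptake, 6 were higher in each sex (median 0.01 in both), with Smdt1, a subunit of the uniporter, at -0.10 ± 0.19 in females and 0.25 ± 0.17 in males. Micu3, a regulator of the uniporter, stood at 0.15 ± 0.23 in females and -0.28 ± 0.21 in males, and Letm1, an inner membrane ion exchanger, at -0.14 ± 0.16 and 0.11 ± 0.14. Over all 57 tested list genes, edgeR, DESeq2 and limma-voom called 0 in each comparison. At an unadjusted p below 0.05 edgeR counted 1 in females, 0 in males and 4 for the difference between them, which are 1.75%, 0% and 7.02% of the 57 beside 1.74%, 1.42% and 2.49% of all tested genes. DESeq2 counted 5, 2 and 4 (8.77%, 3.51% and 7.02%, beside 2.22%, 2.26% and 3.57% of all). The limma-voom counts were 1, 1 and 3 (1.75%, 1.75% and 5.26%, beside 1.44%, 1.72% and 2.39% of all). Among the markers of other cells, all 12 endothelial and all 12 fibroblast genes had label differences above 0 in both sexes, with medians of 0.66 and 0.62 in females and 0.61 and 0.71 in males. Their part in the list values was not tested.

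Genes whose log2 CPM was most like that of each pump over the 15 libraries are given as a description, since these libraries share depth and marker content. For Atp2b2 they were the Y-linked Tspy-ps (Pearson r = 0.911), Nln, which encodes the peptidase neurolysin (r = 0.908), the Y-linked Gm29650 (r = 0.908), Cdh4, the cadherin of retina and other neural tissue (r = 0.893), and Tnfrsf23, a decoy receptor (r = 0.886). Within 1 sex the likeness was smaller for all 5, at 0.172 in the 7 females and 0.265 in the 8 males for Tspy-ps and 0.809 and -0.353 for Nln, and it was 0.560 and 0.826 for Tnfrsf23 and 0.633 and 0.621 for Cdh4. For Atp2b4 they were Elk3, Trerf1 and Stab1 (r = 0.995, 0.995 and 0.994), of which Stab1 encodes a scavenger receptor of endothelium and macrophages. Their r remained 0.975, 0.972 and 0.962 within the 9 libraries with low markers and 0.951, 0.855 and 0.983 within the 6 with high markers.

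For the other 5 genes the closest had r of 0.920 to 0.971. Pln was closest to Gm14295 (r = 0.971), Etfa, a mitochondrial electron carrier of fatty acid oxidation (r = 0.967), and Mbtps2 (r = 0.962). Slc8a1 was closest to Fbxo28 (r = 0.951), Asph, whose locus encodes the reticulum protein junctin (r = 0.927), and 1700037F03Rik (r = 0.920). Atp2a2 was closest to Gm47558, Mrps28 and Cdkal1 (r = 0.933, 0.928 and 0.922), Atp2c1 to Rbm33, Fbxl4 and Epm2a (r = 0.941, 0.940 and 0.939), and Atp2b1 to Creb1, Ddx50 and Smc6 (r = 0.940, 0.938 and 0.938). Among the 7 genes themselves, r between Atp2a2 and Pln was 0.771, between Atp2c1 and Pln 0.793, and between Atp2a2 and Slc8a1 0.716. Atp2b4 had r of -0.839 with Atp2a2, and Atp2b2 had r of 0.00454 with Slc8a1 and -0.457 with Atp2a2.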

How the data were processed

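Nuclear RNA from 15 libraries was sequenced with a directional kit. Reads were aligned with STAR 2.5.3a and counted with featureCounts 1.5.0 on GRCm38, per the submitters' processing notes. The deposited values are raw counts per gene, made by the authors over whole gene bodies (length equals end minus start plus 1 in 100% of the 55536 genes), without normalisation. An abbreviation in the labels reads as reversed strand, which they do not spell out.

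The analysis used R 4.3.3 and edgeR 4.0.16. The filter filterByExpr left 17455 genes, and TMM factors scaled the libraries. All 15 libraries entered a quasi-likelihood fit with a mean for each of the 4 groups (11 residual degrees of freedom), with Benjamini-Hochberg adjustment over all tested genes and a threshold of 0.05. CPM are on TMM library sizes, and log2 CPM used a prior count of 0.5. SE are of the log2 fold change. DESeq2 1.42.0, limma-voom (limma 3.58.1), other scaling, no filter, a replicate block, a marker term and left-out libraries were alternatives. For shares and ratios, exact unpaired permutation tests (two-sided) were run over libraries, adjusted over 10 tests. A version paired by replicate number was an alternative. The fit was tested on simulated data with label changes in males. At the common dispersion of 0.163, edgeR called 8 of 100 genes with a log2 change of 1 and 91 of 100 with a log2 change of 2. At a dispersion of 0.04 the counts were 87 and 100. Every simulated gene had the same dispersion, so these counts do not give the power for single members.

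A floor of 3 counts was 0.0219 to 0.117 CPM per library and covers counting error only. The members and gene lists were chosen with earlier results of these data known. Genes named beside the 7 are Pgr, Pcm1, Xist and Ddx3y, the 4 tested genes of each list with the smallest p by label in either sex (some of which are not reported here), and the 5 (Atp2b2) or 3 genes most like each member. Atp2a3, Sln and Atp2b3 were named after their values were seen. In the list of regulators Strit1 is Gm34302, and Arln and Erln were not matched. Promoter windows are from RefSeq (GRCm38.p6), with 10 windows for 6 of the 7 members.

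Replicate numbers shared by the groups were checked as pairs by correlating deviations from the group means. These were 0.183 to 0.699 between the male label groups and 0.137 to 0.832 between the sexes under the wild-type label, 0.504 to 0.815 under the knockout label, and 0.698, -0.393 and 0.502 between the female label groups. All but the last counted as paired by their correlations, since the labels give no shared source. Replicate 2 had high markers in the knockout groups and low ones in the wild-type groups. Between the labels it gave -0.393 in females and 0.183 in males, the lowest of each. The part of the marker sets in these correlations was not tested, so they do not show a shared source. The main tests were unpaired, and the replicate block covered all groups, the female label groups included. Pcm1 stood at 195 ± 26.0, 166 ± 10.6, 183 ± 48.6 and 184 ± 41.2 CPM in knockout females, knockout males, wild-type females and wild-type males.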

Additional observations from a re-analysis of the deposited data

How the results depend on the processing

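In the 3 comparisons of genotype labels no member was called under any alternative. The female minus male log2 difference of Atp2b2 was -2.11 to -1.96 (knockout label) and -2.02 to -1.66 (wild-type label) in every alternative other than single left-out libraries. The sign of some uncalled label differences changed, and the cause was not tested. In the 6 libraries with high markers alone, the log2 differences were -0.04 (Atp2b1), -0.13 (Atp2b4) and -0.02 (Atp2a2) in females, -0.37 (Atp2b4), 0.10 (Atp2a2), 0.18 (Atp2c1) and 0.55 (Pln) in males, and -0.04 (Atp2b1), 0.23 (Atp2b4), -0.12 (Atp2a2), -0.12 (Slc8a1) and -0.12 (Pln) for females minus males. In the 9 with low markers alone, Atp2b4 was -0.94 in females and -0.75 in males, its share differed by -0.935 and -0.699 percentage points, the Atp2b1 share in females by 0.613, and log2 Pln over Atp2a2 by -0.07 in females and -0.19 in males. With the marker term, Atp2b4 was -0.22 in females, -0.29 in males and 0.07 for the difference, where Slc8a1 was -0.00. Without the 3 libraries holding other-sex reads, females gave -1.01 (Atp2b4), 0.18 (Slc8a1), shares of 2.89 (Atp2b1) and -3.44 (Atp2b4) percentage points, and -0.03 for log2 Atp2a2 over Slc8a1. The replicate block changed no call of a member. It gave -0.02 for Atp2a2 in females and 0.58 ± 0.18 for Atp2b2 in males (edgeR adjusted p = 0.918).

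Leaving out single libraries changed signs within these ranges. In females the log2 differences were -0.03 to 0.11 (Atp2b1), -0.53 to 2.1 (Atp2b4), -0.03 to 0.09 (Atp2a2), -0.28 to 0.04 (Slc8a1) and -0.15 to 0.41 (Pln), and in males -0.19 to 1.76 (Atp2b4). For females minus males they were -0.49 to 0.05 (Atp2b2), -1.51 to 1.82 (Atp2b4), -0.16 to 0.29 (Slc8a1) and -0.03 to 0.55 (Pln). Shares in females differed by -5.55 to 0.866 (Atp2b1), -0.0117 to 0.36 (Atp2b2) and -1.25 to 4.9 (Atp2b4) percentage points, and in males by -0.643 to 4.41 (Atp2b4). log2 Pln over Atp2a2 differed by -0.09 to 0.33 in females and -0.06 to 0.12 in males, and log2 Atp2a2 over Slc8a1 by -0.01 to 0.24 in males.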
